A study of Mus musculus with 24 samples.

Results

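Heat shock proteins and chaperonins were followed through the resting and activated states of mouse Tconv CD4+ cells. The set comprised 10 genes, of 55414 genes in the count tables, and was divided by role into 5 stress-inducible members (Hspa1a, Hspa1b, Hsph1, Dnajb1 and Hsp90aa1), 2 constitutive cytosolic members (Hspa8 and Hsp90ab1), 1 member of the endoplasmic reticulum (Hspa5) and 2 mitochondrial members (Hspd1 and Hspe1). The genes were selected by name with earlier results of these libraries known, among them the large fall of Hspa1a on activation, so the change of the members with activation is given as a description without a test. All 10 members were found in the tables and all 10 passed the filter on low counts, Hspa1a and Hspa1b through their resting values.

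Chaperones bind unfolded or partly folded proteins and keep them from aggregating. HSP70 proteins take up short hydrophobic stretches, J-domain proteins of the HSP40 class deliver these clients and stimulate the HSP70 ATPase, HSP110 proteins exchange the bound nucleotide, and HSP90 proteins act late, on kinases and receptors that are nearly folded. Chaperonins such as HSP60 enclose a whole protein in a chamber. The inducible members are switched on by heat shock factor 1 (HSF1) when damaged protein accumulates, whereas the constitutive members serve growing and resting cells alike. T cells that leave quiescence raise protein synthesis and their need for folding capacity.

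The cells were CD4+ CD25- T cells of the spleen, enriched on magnetic columns from conplastic mice with a common C57BL/6J nucleus and an mtDNA that is either that of C57BL/6J (mtDNA B6, labelled WT) or that of NZB (mtDNA NZB, labelled NZB). Cells were left resting (RES) or activated (ACT) with beads carrying antibodies to CD3 and CD28, at 1 activation time. Each of the 4 groups held 6 libraries, 24 in all. The labels call the cells TE, and whether the resting cells were kept in culture is not stated in the sources used here. Libraries were made by bulk MARS-seq, in which polyadenylated RNA is read at its 3′ end and every molecule carries a barcode of its own (unique molecular identifier, UMI). The counts are therefore counts of molecules near the 3′ end and need no scaling by transcript length.

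Libraries held from 51409 to 6449400 UMI counts, with a median of 3187200. The smallest, mtDNA NZB RES replicate 2, held 1 count of Dnajb1, 4 of Hspa1a and 112 of Hsp90ab1, and 1 count there was worth 16.7 CPM (counts scaled to a common library total, after TMM). Leaving that library out moved no member's log2 fold change by more than 0.204 in any of the 5 comparisons. Reads per UMI divided the 24 libraries into 3 sets of 8, at 1.88 to 1.96, 2.11 to 2.24 and 2.68 to 2.80 reads per UMI, and the sets were unevenly spread over the groups. Set 1 held 5 of the 6 activated and 0 of the 6 resting mtDNA B6 libraries, set 2 held 4 of the resting mtDNA B6 libraries, and set 3 held 4 of the resting mtDNA NZB libraries. The labels name no batch, and the sets were defined here from the libraries' own counts.

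The labelled state and cell type were checked on marker genes. Of 5 activation markers, 4 were called higher on activation and 1 was not called in each haplotype. Among them Il2ra, the CD25 chain of the interleukin 2 receptor, rose by a log2 fold change of 4.68 (SE 0.38, edgeR adjusted p = 3.65e-10) in mtDNA B6 cells and 5.00 (SE 0.41, edgeR adjusted p = 4.84e-10) in mtDNA NZB cells. Its resting medians were 3.15 and 2.99 CPM, in cells that had been selected as CD25-. The summed level of 7 T cell markers lay between 3480 and 6682 CPM in every library, and none of these markers was at 0 in a group. Of the 7, 2 were called higher and 1 lower on activation in each haplotype. Markers of several other cell types also moved with the state. The 7 myeloid markers fell on activation in both haplotypes, from a summed 1243 to 3404 CPM to 179 to 252 CPM in mtDNA B6 cells and from 812 to 3610 CPM to 167 to 286 CPM in mtDNA NZB cells. The neutrophil list (6 of 7 markers tested, 6 lower in both) and the erythroid list (6 of 6 lower in both) fell as well. Of all genes, 24.5% were lower with mtDNA B6 and 28.4% with mtDNA NZB. Neutrophil markers summed to medians of 1778 at rest and 16 CPM after activation with mtDNA B6, and 431 and 35.8 CPM with mtDNA NZB. Erythroid medians went from 1352 to 10.2 CPM and from 235 to 15.5 CPM. These genes may have passed the filter on low counts mainly through their resting values, so their calls are a description. The 6 B cell markers gave 0 calls. Both CD8 T cell markers, Cd8a and Cd8b1, rose on activation in both haplotypes, from a summed 52.0 to 110.6 CPM to 161 to 403 CPM in mtDNA B6 cells and from 16.7 to 141 CPM to 81.5 to 531 CPM in mtDNA NZB cells. Of 4 NK cell markers, 3 were tested, with 2 higher and 1 lower in mtDNA B6 cells and 0 higher and 1 lower in mtDNA NZB cells. In bulk RNA, fewer cells of a type and less RNA per cell cannot be told apart.

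Hspa1a and Hspa1b, the paired intronless genes of inducible HSP70, lie on chromosome 17 at chr17:35188166-35191132 and chr17:35175412-35178214 (GRCm39, minus strand, 1 exon each). In resting mtDNA B6 cells Hspa1a was at 442 CPM in the lowest library, 4582 CPM at the median and 11510 CPM in the highest. In activated mtDNA B6 cells it was at 0.0, 0.0, 0.99, 0.84, 113.6 and 0.39 CPM in replicates 1 to 6, so that every activated library was below every resting one. These 6 libraries held 454 Hspa1a counts, of which all but 8 came from replicate 5. The log2 fold change on activation was -8.06 (SE 1.56), and it rested on that library, since without it the fitted value was -13.39 (SE 1.85) from 8 counts in 5 libraries.

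In resting mtDNA NZB cells Hspa1a was at 2389, 66.9, 41.4, 115.8, 3091 and 1404 CPM in replicates 1 to 6, with a median of 760 CPM and a span of 74.6-fold. After activation it was at 14.3, 56.5, 14.3, 102.8, 0.0 and 1.17 CPM. The lowest resting and the highest activated libraries overlapped in this haplotype, and the log2 fold change was -5.28 (SE 1.39).

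Hspa1b followed Hspa1a closely. It was at 701 CPM in the lowest, 7277 CPM in the median and 17029 CPM in the highest resting mtDNA B6 library, against 0.33, 1.84 and 192.3 CPM after activation. The mtDNA NZB values were 84.2, 1120 and 4132 CPM at rest and 3.36, 19.6 and 166.9 CPM after activation. Its log2 fold change was -7.90 (SE 1.53) in mtDNA B6 cells and -5.12 (SE 1.36) in mtDNA NZB cells. The ratio of Hspa1a to Hspa1b counts had a median of 0.63 (range 0.49 to 0.75) over the 11 resting libraries with at least 100 counts of the pair, and of 0.60 (range 0.57 to 0.70) over the 4 such activated libraries. The pair share 112 of the 951 stretches of 50 bases in their last 1000 transcript bases, so reads from those stretches cannot be assigned to 1 of the genes.

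The promoters of the inducible and mitochondrial members were read from the RefSeq promoter table (GRCm38.p6), which gives 250 bases before and 50 after each start, and searched on both strands for the HSF1 recognition unit. A pair of units was written as GAANNTTC or TTCNNGAA, and a run of 3 units as GAANNTTCNNGAA or TTCNNGAANNTTC, which contains 2 overlapping pairs. Pairs occurred in 15.1% and triples in 0.603% of 32851 promoters. The 300-base promoters of Hspa1a and Hspa1b were identical at 296 bases, and both carried 1 pair 97 to 104 bases before the start. Hsph1 carried a triple 36 to 48 bases after its start. Hspd1 and Hspe1 are divergent neighbours, and the same 18 bases with 2 overlapping triples lay 127 to 144 bases before the start of Hspd1, in 1 of its 2 promoters, and 72 to 89 bases before that of Hspe1. The 30 bases around each are shown because most members moved together in the resting libraries, and capitals mark the motif:
Hspa1a: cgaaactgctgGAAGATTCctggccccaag
Hspa1b: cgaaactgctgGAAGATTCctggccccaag
Hsph1: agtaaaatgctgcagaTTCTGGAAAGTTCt
Hspd1: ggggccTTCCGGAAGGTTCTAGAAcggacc
Hspe1: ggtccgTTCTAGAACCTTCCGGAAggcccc

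Matched to GRCm39, the Hspa1a and Hspa1b windows lie at chr17:35191218-35191247 and chr17:35178300-35178329 on the minus strand, each 86 bases upstream of the annotated gene and in no other gene. The Hsph1 window is at chr5:149559752-149559781, minus strand, within an Hsph1 exon. The Hspd1 and Hspe1 windows are the same bases, chr1:55127212-55127241, read on opposite strands, 19 bases upstream of Hspe1 and within an exon of a longer Hspd1 transcript. Neither motif was found in the promoter entries of Dnajb1 and Hspa5, and the table used has no entry for Hsp90aa1, Hspa8 and Hsp90ab1. Of 89 other genes of the chaperone network with a promoter entry, the triple was found in 2, Chordc1 and Dnajb6. A match is a description of the letters and not evidence of binding.

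Dnajb1, the J-domain partner of inducible HSP70 (chr8:84334811-84339820, plus strand, 3 exons), was at 115 CPM in the lowest, 352 CPM in the median and 821 CPM in the highest resting mtDNA B6 library. After activation the same values were 56.4, 64.8 and 75.9 CPM, so the groups did not overlap and the activated libraries lay within 1.35-fold of each other. Dnajb1 in mtDNA NZB cells was at 16.7, 138 and 383 CPM at rest, the lowest being a single count in the smallest library, and at 60.3, 70.6 and 86.4 CPM after activation. Dnajb1 thus had a log2 fold change of -2.64 (SE 0.43) in mtDNA B6 cells and -1.30 (SE 0.42) in mtDNA NZB cells, and in the latter it was -0.89 without mtDNA NZB RES replicate 5.

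Hsph1 encodes the HSP110 nucleotide exchange factor (chr5:149537636-149560156, minus strand, 18 exons). It was at 132, 432 and 719 CPM in the lowest, median and highest resting mtDNA B6 library and at 56.4, 67.6 and 74.1 CPM after activation, again without overlap. Hsph1 in mtDNA NZB cells was at 48.8, 185 and 920 CPM at rest and at 49.2, 64.8 and 81.1 CPM after activation. Its log2 fold changes were -2.56 (SE 0.49) and -2.39 (SE 0.50) in mtDNA B6 and mtDNA NZB cells.

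Hsp90aa1, the inducible cytosolic HSP90 (chr12:110656842-110669166, minus strand, 11 exons), had the smallest fitted fall of the 5 inducible members in both haplotypes. In mtDNA NZB cells it was close to Dnajb1 (-1.30, SE 0.42). Within library set 3, though not within sets 1 and 2, Dnajb1 fell less there than Hsp90aa1 (log2 ratio -1.27 against -1.73). Resting mtDNA B6 libraries were at 133 to 545 CPM (median 357 CPM) and activated ones at 85.9 to 168 CPM (median 125 CPM), with overlap. Resting mtDNA NZB libraries were at 89.9 to 578 CPM (median 137 CPM) and activated ones at 81.8 to 149 CPM (median 126 CPM), so the medians were close, and mtDNA NZB RES replicates 5 and 6 were the highest resting libraries. The log2 fold change was -1.40 (SE 0.38) in mtDNA B6 cells and -1.09 (SE 0.39) in mtDNA NZB cells. This last value was -0.61 without replicate 5 at rest and -0.89 without replicate 6 at rest.

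**Figure D1:**
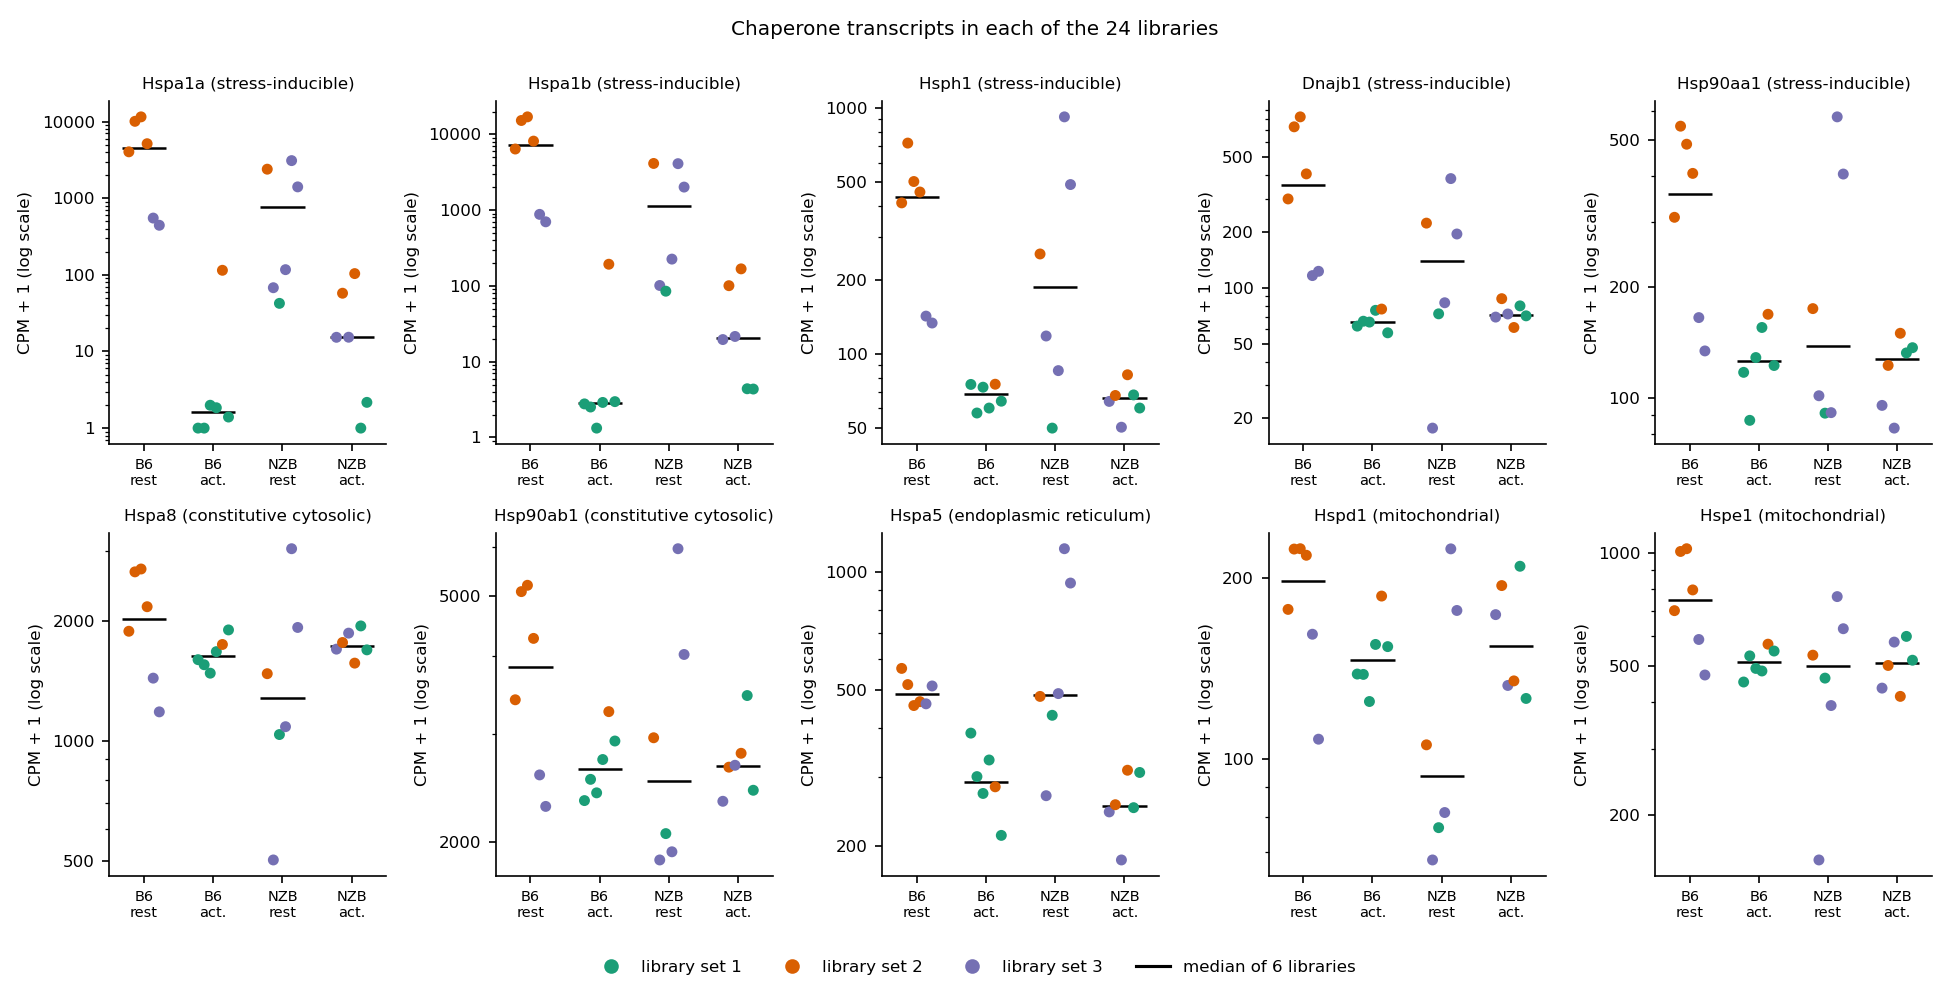
Level of each of the 10 members in each library, as CPM + 1 on a log scale, for resting (rest) and activated (act.) mtDNA B6 and mtDNA NZB cells. Points are libraries, coloured by library set, and lines are medians of 6. For Hspa1a the resting mtDNA B6 libraries sit between 442 and 11510 CPM and 5 of the 6 activated ones at or below 0.99 CPM, whereas Hspa8 and Hspd1 overlap between states.

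The constitutive cytosolic members were abundant in both states and overlapped between them. Hspa8 encodes HSC70, the housekeeping HSP70 (chr9:40711630-40731039, plus strand, 9 exons). It was at 1184 to 2708 CPM (median 2032 CPM) in resting and 1481 to 1903 CPM (median 1640 CPM) in activated mtDNA B6 cells, and at 502 to 3045 CPM (median 1281 CPM) and 1570 to 1947 CPM (median 1736 CPM) in mtDNA NZB cells. Hspa8 had a log2 fold change of -0.28 (SE 0.25) in mtDNA B6 cells and 0.19 (SE 0.25) in mtDNA NZB cells, both within about 1 standard error of 0.

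Hsp90ab1, the constitutive HSP90 (chr17:45878552-45891949, minus strand, 11 exons), was at 2286 to 5207 CPM (median 3837 CPM) in resting and 2336 to 3253 CPM (median 2625 CPM) in activated mtDNA B6 cells. Libraries of mtDNA NZB cells were at 1873 to 5966 CPM (median 2509 CPM) at rest and 2330 to 3454 CPM (median 2655 CPM) after activation. Hsp90ab1 had a log2 fold change of -0.50 (SE 0.24) in mtDNA B6 cells and -0.22 (SE 0.24) in mtDNA NZB cells. The mtDNA B6 value was -0.59 without mtDNA B6 RES replicate 5.

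Hspa5, the HSP70 of the endoplasmic reticulum also called BiP (chr2:34661982-34668880, plus strand, 8 exons), differed from the cytosolic members in its spread in resting mtDNA B6 cells. Resting mtDNA B6 libraries lay within 1.24-fold of each other, at 455 to 566 CPM (median 488 CPM), and did not overlap the activated ones at 212 to 387 CPM (median 291 CPM). Resting mtDNA NZB libraries were at 268 to 1145 CPM (median 484 CPM) and activated ones at 183 to 311 CPM (median 252 CPM). At rest in that haplotype Hspa5 spanned 4.28-fold, between Hsp90ab1 (3.19-fold) and Hspa8 (6.07-fold). The log2 fold change was -0.74 (SE 0.22) in mtDNA B6 cells and -1.33 (SE 0.22) in mtDNA NZB cells. With the library set as a term they were -0.68 (SE 0.30) and -1.28 (SE 0.25).

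Hspd1 and Hspe1 encode HSP60 and HSP10, the chamber and the lid of the mitochondrial chaperonin, and lie head to head at chr1:55116989-55171038 (minus strand, 12 exons) and chr1:55127260-55130476 (plus strand, 4 exons). Hspd1 was at 107 to 223 CPM (median 197 CPM) in resting and 124 to 186 CPM (median 145 CPM) in activated mtDNA B6 cells, and at 66.9 to 223 CPM (median 92.5 CPM) and 125 to 209 CPM (median 154 CPM) in mtDNA NZB cells. Its log2 fold change was -0.31 (SE 0.22) in mtDNA B6 cells and 0.32 (SE 0.23) in mtDNA NZB cells, where it was 0.59 without mtDNA NZB RES replicate 5. Hspe1 was at 471 to 1026 CPM (median 748 CPM) and 452 to 570 CPM (median 511 CPM) in mtDNA B6 cells, with a log2 fold change of -0.58 (SE 0.21), and without mtDNA B6 RES replicate 2 or 3 it was -0.48 or -0.43. In mtDNA NZB cells Hspe1 was at 151 to 764 CPM (median 498 CPM) at rest and 413 to 598 CPM (median 508 CPM) after activation, with a log2 fold change of -0.01 (SE 0.21). The last 1000 bases of Hspe1 overlap Hspd1 on the opposite strand, as those of Hspa1a, Hsp90ab1 and Hspa5 overlap Gm20481, Slc35b2 and Rabepk, and strand use in the counting is not stated in the sources used here.

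Of the 10 members, 7 were called lower and 0 higher on activation in mtDNA B6 cells, at an adjusted p of at most 0.05 with no fold cut-off. Of all 10566 genes tested, 24.5% were called lower and 22.4% higher in that comparison. For mtDNA NZB cells, 6 members were called lower and 0 higher, where 28.4% of all genes were lower and 25.2% higher. These counts concern a contrast known when the genes were selected, and nothing is read from them.

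**Figure D2:**
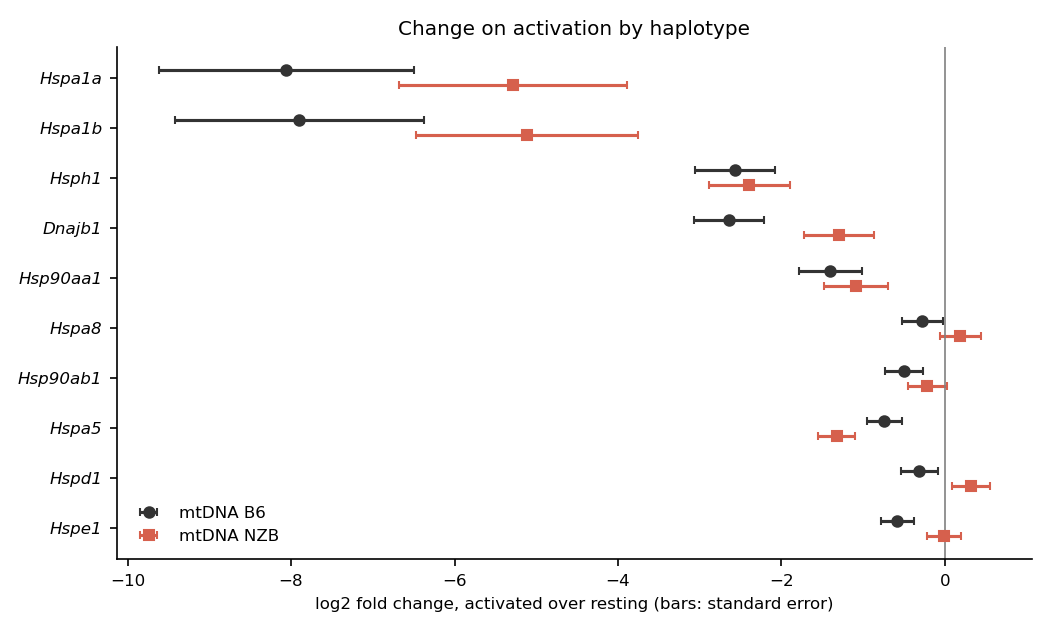
Log2 fold change of each member, activated over resting, in mtDNA B6 (circles) and mtDNA NZB (squares) cells, with bars of 1 standard error. Hspa1a (-8.06 and -5.28) and Hspa1b (-7.90 and -5.12) stand apart from the other 8 members, which lie between -2.64 and 0.32.

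The median weight of these genes in the whole transcriptome was lower after activation in both haplotypes, with ranges that overlapped between states. The 10 members held a median of 1.98% (range 0.604% to 3.59%) of the UMI counts of resting mtDNA B6 libraries and 0.577% (0.540% to 0.698%) after activation. In mtDNA NZB libraries the same shares were 0.788% (0.379% to 1.68%) at rest and 0.579% (0.520% to 0.652%) after activation. Resting mtDNA NZB replicates 2, 3 and 4, at 0.379%, 0.428% and 0.449%, lay below every activated library of that haplotype, and the other resting ones lay above. Hspa1a and Hspa1b alone took up to 2.56% of a resting mtDNA B6 library. Without that pair the medians were 0.826% and 0.577% in mtDNA B6 cells and 0.500% and 0.571% in mtDNA NZB cells, with overlapping ranges in each haplotype. Libraries spread more widely at rest than after activation in both haplotypes.

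**Figure D3:**
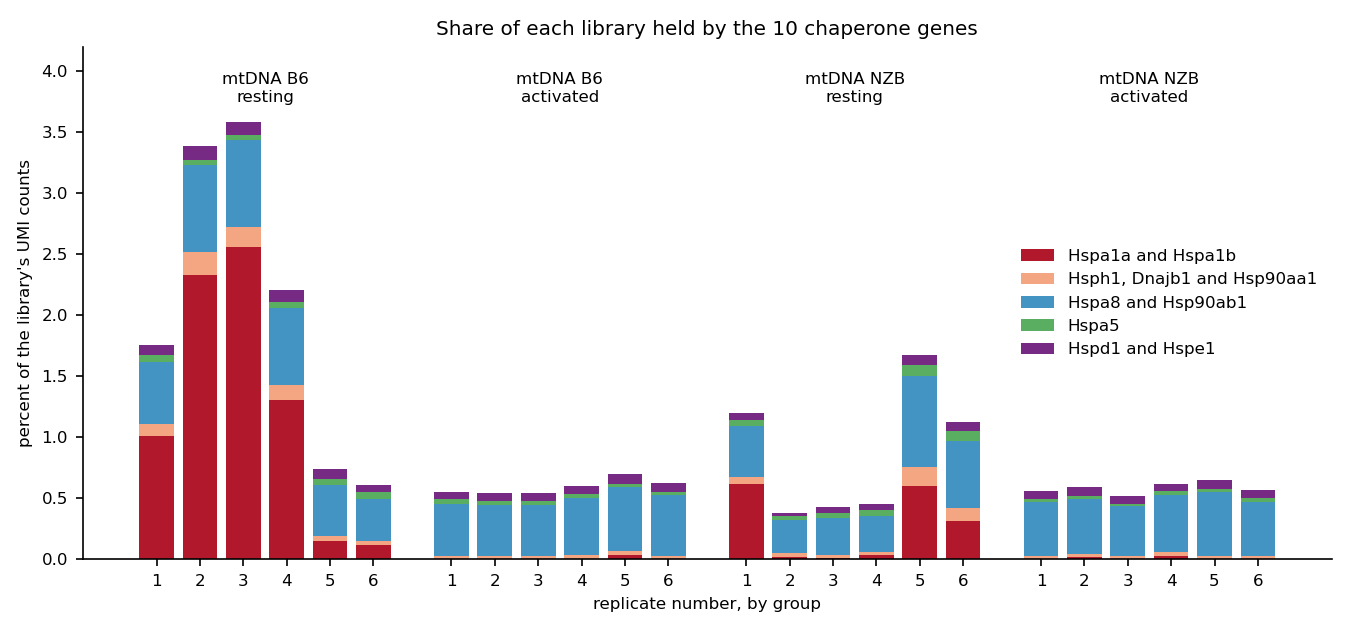
Percent of each library's UMI counts held by the members, stacked by role, for the 6 replicates of each group. Resting mtDNA B6 replicates 1 to 4 reach up to 3.59%, mostly Hspa1a and Hspa1b, and all 12 activated libraries lie between 0.520% and 0.698%.

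The resting libraries were next compared with one another. Over the 12 resting libraries, on log2(CPM + 1), Hspa1b, Hsph1, Dnajb1, Hsp90aa1, Hspa8, Hsp90ab1, Hspd1 and Hspe1 each rose with Hspa1a, with Pearson's r between 0.83 and 0.999 and Spearman's rho between 0.86 and 0.99. For Dnajb1 r was 0.93 and rho 0.98, each with a permutation p of 1e-05, the smallest that 100000 resamples can give (adjusted p = 4.5e-05 over 9 relations), and r was 0.96 without the 2 libraries farthest from the Hspa1a median, 0.98 within mtDNA B6 and 0.86 within mtDNA NZB cells. For Hspd1 r was 0.90 and rho 0.91 (permutation p = 0.00015 and 0.00013, adjusted p = 0.000169 and 0.000288), and r was 0.82 without those 2 libraries. Of the 8, the adjusted p was at most 0.000169 for r and at most 0.000709 for rho. The permutations, here and below, ran over all 12 resting libraries regardless of haplotype and library set. Their p-values therefore do not separate covariation from differences between haplotypes or sets.

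Hspa5 was the exception. Its r with Hspa1a was 0.41 (permutation p = 0.188) and its rho 0.34 (permutation p = 0.278), and r was 0.05 without the 2 farthest libraries. It was 0.01 within mtDNA B6 and 0.76 within mtDNA NZB cells, where replicates 5 and 6, at 3091 and 1404 CPM of Hspa1a, had the most Hspa5, 1145 and 936 CPM. Within library set 3, the only set with 6 resting libraries, r with Hspa1a was 0.92 for Hspa5, 0.93 for Dnajb1 and 0.97 for Hspd1. The points of these comparisons share library, depth and set.

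**Figure D4:**
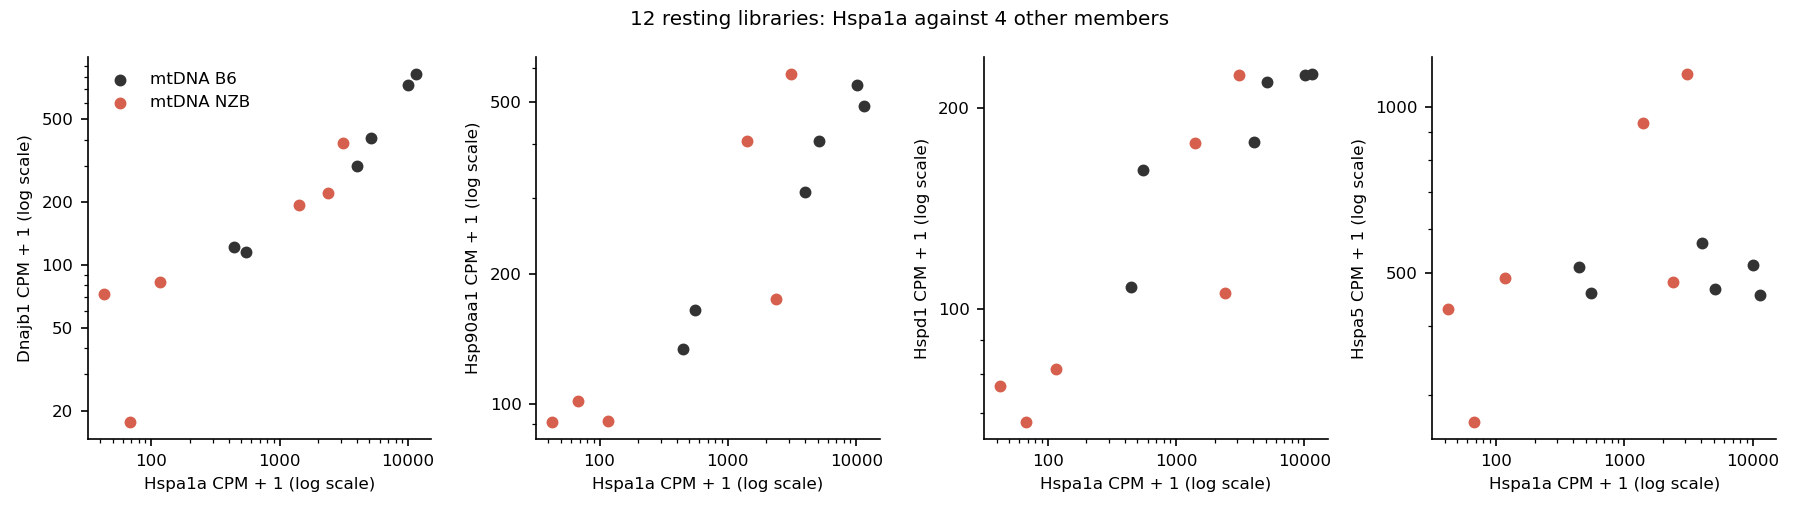
Levels of Dnajb1, Hsp90aa1, Hspd1 and Hspa5 against Hspa1a in the 12 resting libraries, all as CPM + 1 on log scales, coloured by haplotype. The first 3 rise with Hspa1a (r 0.93, 0.91 and 0.90). Hspa5 stays between 455 and 566 CPM in the mtDNA B6 libraries, and its r with Hspa1a is 0.76 within the mtDNA NZB libraries.

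Hspa1a in the resting libraries was also set beside summed marker levels, in 5 relations chosen after the data were seen. For 18 immediate-early genes, such as Fos, Jun and Egr1, which rise within minutes of a stimulus, r was 0.15 (permutation p = 0.648) and rho 0.30 (permutation p = 0.34). For myeloid and neutrophil markers r was 0.19 (permutation p = 0.556) and -0.09 (permutation p = 0.776), but within mtDNA B6 cells it was -0.85 and -0.87. For erythroid markers r was 0.61 (permutation p = 0.0353, adjusted p = 0.176) and rho 0.69 (permutation p = 0.0153, adjusted p = 0.0765), falling to r = 0.50 without the 2 farthest libraries. For T cell markers r was 0.16 (permutation p = 0.63). None of the 5 passed after adjustment.

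The immediate-early genes themselves moved with the state as the inducible chaperones did. Of 17 tested, 16 fell on activation in both haplotypes, where 24.5% and 28.4% of all genes were lower in mtDNA B6 and mtDNA NZB cells. Fosb had log2 fold changes of -7.25 in mtDNA B6 cells (edgeR adjusted p = 2.76e-13) and -6.71 in mtDNA NZB cells (edgeR adjusted p = 1.04e-12). The list of immediate-early genes was chosen with earlier results of these libraries known, so its count and p-values are a description. Their summed level was 18821 to 24734 CPM in resting and 1669 to 1907 CPM in activated mtDNA B6 libraries, and 8355 to 24881 CPM against 1588 to 1919 CPM in mtDNA NZB libraries. The part of these genes, and of the myeloid, neutrophil and erythroid RNA given above, in the fall of the inducible chaperones was not tested.

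Library set moved with the level of Hspa1a in both states. Activated libraries were at 0.0 to 1.17 CPM in set 1 (7 libraries), 56.5 to 113.6 CPM in set 2 (3 libraries) and 14.3 CPM in set 3 (2 libraries), in both haplotypes where a set held both. Resting libraries were at 41.4 CPM in the single library of set 1, 2389 to 11510 CPM in set 2 (5 libraries) and 66.9 to 3091 CPM in set 3 (6 libraries). Resting libraries were above the activated ones of the same set throughout. The part of the library set in these levels was not tested.

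**Figure D5:**
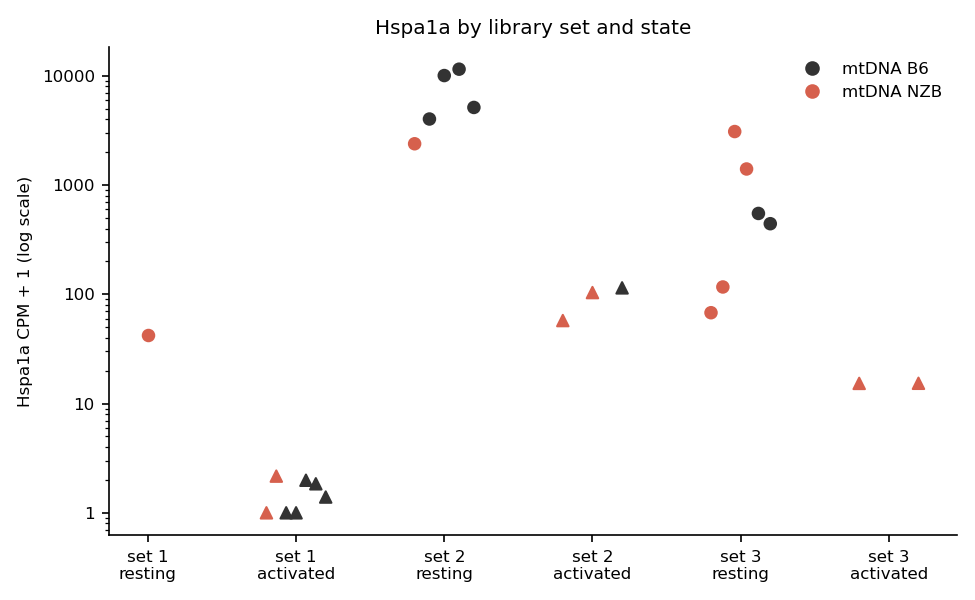
Hspa1a in each of the 24 libraries, as CPM + 1 on a log scale, by library set and state, with circles for resting and triangles for activated libraries and colour for haplotype. In each set the resting libraries lie above the activated ones, and within the activated state set 2 (56.5 to 113.6 CPM) lies above set 3 and set 1.

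Within sets, the log2 ratio of the activated to the resting mean of Hspa1a was -6.08 in mtDNA B6 cells in set 2, the only set with both states (4 against 1 library), and -6.15, -4.91 and -6.35 in mtDNA NZB cells in sets 1, 2 and 3. The other inducible members were less even. In mtDNA NZB cells Dnajb1 had ratios of 0.06, -1.59 and -1.27, Hsph1 of 0.37, -1.78 and -2.84, and Hsp90aa1 of 0.57, -0.36 and -1.73 in sets 1, 2 and 3, so these 3 genes were not lower after activation in set 1, which had a single resting library. With the set as a term in the fit, Hspa1a had log2 fold changes of -5.92 (SE 1.07) and -6.36 (SE 0.79) in mtDNA B6 and mtDNA NZB cells, close to each other.

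The comparison of haplotypes set the chaperones of mtDNA NZB cells beside those of mtDNA B6 cells, and was not used to select the members. It does not isolate mtDNA, because 4 resting mtDNA B6 libraries were in set 2 and 4 resting mtDNA NZB libraries in set 3. At rest, 0 of the 10 members passed the test, where 2.76% of all genes did. In 9 of the 10 members, all but Hspa5, the fitted level was lower in mtDNA NZB than in mtDNA B6 cells. Most members moved together over these libraries, so this is not a count of independent genes. With the library set as a term the fitted level was lower in 6 of the 10, with Hsp90aa1 at -0.04, and higher in Hspa5, Hspa1a, Hsph1 and Hspa1b. The difference was -1.21 in log2 for Dnajb1 (SE 0.42, edgeR adjusted p = 0.0946, interval of 2 SE -2.04 to -0.38), -0.58 for Hspe1 (SE 0.21, edgeR adjusted p = 0.109) and -0.53 for Hspd1 (SE 0.23, edgeR adjusted p = 0.196). For Hspa1a it was -2.11 (SE 1.18, edgeR adjusted p = 0.313, interval -4.48 to 0.25), with levels of 442 to 11510 CPM in mtDNA B6 and 41.4 to 3091 CPM in mtDNA NZB cells that overlapped.

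With the library set as a term the resting difference of Hspa1a was 0.26 (SE 0.68, edgeR adjusted p = 0.902), the opposite sign, and that of Dnajb1 was -0.65 (SE 0.47, edgeR adjusted p = 0.521). For Hspa5 the difference at rest was 0.38 (SE 0.22, edgeR adjusted p = 0.327, interval -0.06 to 0.82). The remaining members, Hspa1b, Hsph1, Hsp90aa1, Hspa8 and Hsp90ab1, had adjusted p values between 0.296 and 0.851.

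After activation the haplotypes were closer. Of the 10 members 0 passed, as did 0% of all genes with edgeR and 0 genes with DESeq2, while 327 of 10566 genes had an unadjusted p under 0.05, none of them a member. Differences were 0.13 in log2 for Dnajb1 (interval of 2 SE -0.70 to 0.96), -0.01 for Hspe1 (-0.43 to 0.40), 0.11 for Hspd1 (-0.34 to 0.56), 0.08 for Hspa8 (-0.42 to 0.58) and 0.01 for Hsp90ab1 (-0.46 to 0.49). For Hspa1a the interval was wide, 0.67 (-1.87 to 3.20), its counts being near 0 in most activated libraries, and the difference reached 5.99 without mtDNA B6 ACT replicate 5.

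Whether the response to activation differed between haplotypes was tested directly by the interaction term. None of the 10 members passed, as did 0% of all genes with edgeR, with 1512 genes at an unadjusted p under 0.05 and 1 gene called by DESeq2. Over 21 libraries, leaving out mtDNA NZB RES replicates 2 and 6 and mtDNA NZB ACT replicate 6, edgeR called 95 genes higher and 18 lower, again without a member, and 0 genes with the library set as a term over the same libraries. The difference of the responses, mtDNA NZB minus mtDNA B6, was 1.34 in log2 for Dnajb1 (SE 0.59, edgeR adjusted p = 0.303, interval of 2 SE 0.17 to 2.52), 2.78 for Hspa1a (SE 1.72, edgeR adjusted p = 0.465, interval -0.67 to 6.22) and -0.59 for Hspa5 (SE 0.31, edgeR adjusted p = 0.389, interval -1.21 to 0.03). For Hspd1 it was 0.64 (SE 0.32, edgeR adjusted p = 0.37) and for Hspe1 0.57 (SE 0.29, edgeR adjusted p = 0.375). With the library set as a term it was -0.44 for Hspa1a (SE 1.14, edgeR adjusted p = 0.937), again of the opposite sign.

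The wider chaperone network, 109 further genes in 8 lists, showed which other folding factors changed with activation. Of the 93 tested, in mtDNA B6 cells 30 were higher and 20 lower after activation, and in mtDNA NZB cells 37 were higher and 19 lower, with median log2 fold changes of 0.14 and 0.23 against -0.03 and -0.06 over all genes. Of all genes tested, 22.4% were higher and 24.5% lower in mtDNA B6 cells, and 25.2% and 28.4% in mtDNA NZB cells. The 2 comparisons share no library. The lists were chosen with earlier results of these libraries known. Their counts and p-values on activation, here and below, are therefore a description. The genes counted as lower include Hspb1, which passed the filter on low counts through its resting values.

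The cytosolic chaperonin TRiC folds actin and tubulin. Where 22.4% and 25.2% of all genes were higher, it had 7 of 8 subunits higher in mtDNA B6 cells and 6 of 8 in mtDNA NZB cells, with 0 lower. Its subunit Tcp1 was at 102 to 151 CPM (median 127 CPM) in resting and 152 to 276 CPM (median 225 CPM) in activated mtDNA B6 cells, and at 96.6 to 187 CPM and 189 to 269 CPM in mtDNA NZB cells, without overlap in either haplotype. The log2 fold change of Tcp1 was 0.81 (SE 0.15, edgeR adjusted p = 9.14e-05) and 0.68 (SE 0.16, edgeR adjusted p = 0.000655). Cct8 rose by 0.66 and 0.67 (edgeR adjusted p = 0.000151 in both). Prefoldin hands nascent chains to TRiC. Of its 5 tested subunits 3 rose and 2 fell in each haplotype, where 24.5% and 28.4% of all genes were lower. Nothing about prefoldin is read from these counts. Pfdn1 stood at 0.68 and 1.15 and Pfdn5 at -0.41 and -0.44 (edgeR adjusted p between 1.46e-07 and 0.014).

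The 2 small heat shock proteins in the fit were Hspb1 and Hspb6. Hspb6 rose by 0.96 in log2 in mtDNA NZB cells (edgeR adjusted p = 0.00113) and stood at 0.21 in mtDNA B6 cells (edgeR adjusted p = 0.417). Of the 2 tested genes in the list of heat shock factors, Hsf1 fell in both haplotypes, where 24.5% and 28.4% of all genes were lower. Hspb1, the small heat shock protein HSP27, was at 4.49 to 284 CPM (median 59.2 CPM) in resting and 0.0 to 1.53 CPM in activated mtDNA B6 cells, and at 2.00 to 56.2 CPM and 0.0 to 0.58 CPM in mtDNA NZB cells. Its activated libraries held 9 and 7 counts in all, and its fitted log2 fold changes were -7.92 (SE 1.11) and -5.99 (SE 1.29). Hspb1 passed the filter on low counts through its resting values, so its fall is given without a test. Bag3, an HSP70 cochaperone that directs clients to autophagy, was at 31.4 to 115 CPM in resting and 6.91 to 11.1 CPM in activated mtDNA B6 cells, and at 16.7 to 69.3 CPM and 4.63 to 15.7 CPM in mtDNA NZB cells, with log2 fold changes of -2.88 and -2.31 (edgeR adjusted p = 1.25e-07 and 7.54e-06). Hsf1 itself, the factor that switches these genes on, was at 109 to 131 CPM at rest and 70.7 to 84.1 CPM after activation in mtDNA B6 cells, and at 123 to 156 CPM and 62.6 to 94.4 CPM in mtDNA NZB cells, with log2 fold changes of -0.68 and -0.81 (edgeR adjusted p = 1.66e-06 and 1.5e-07).

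The rest of the cytosolic HSP70 system had 5 of 26 genes higher and 7 lower in mtDNA B6 cells and 6 higher and 9 lower in mtDNA NZB cells. Of all genes, 22.4% were higher and 24.5% lower in mtDNA B6 cells, and 25.2% and 28.4% in mtDNA NZB cells. Nothing about the list is read from its counts. Dnajc2, a J-protein bound to the ribosome, rose by 0.86 and 0.96 in log2 and Dnajc9, a histone chaperone with a J-domain, by 0.81 and 0.88, and Dnajb2 fell with log2 fold changes of -1.44 and -1.77 (edgeR adjusted p of at most 6.04e-06 for each). Of 15 HSP90 cochaperones mtDNA B6 cells had 5 higher and 2 lower, and mtDNA NZB cells 6 higher and 3 lower. Stip1, which links HSP70 to HSP90, rose by 0.60 (edgeR adjusted p = 0.00221) and 0.86 (edgeR adjusted p = 6.98e-05), and Unc45a fell with log2 fold changes of -0.70 (edgeR adjusted p = 0.00085) and -1.56 (edgeR adjusted p = 3.05e-08).

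Among the 19 tested chaperones of the endoplasmic reticulum, Hspa5's compartment, mtDNA B6 cells had 6 higher and 3 lower, and mtDNA NZB cells 9 higher and 2 lower. The shares of all genes were 22.4% higher and 24.5% lower in mtDNA B6 cells, and 25.2% and 28.4% in mtDNA NZB cells. Pdia3, a disulfide isomerase for glycoproteins, rose by 0.82 and 0.68 in log2 (edgeR adjusted p = 0.000214 and 0.00184), the opposite direction to Hspa5. Dnajb9, a J-protein that partners with Hspa5, fell with log2 fold changes of -3.17 and -3.75 (edgeR adjusted p = 3.88e-12 and 9.5e-13), and Herpud1, a degradation factor of the same compartment, with -1.13 and -1.53 (edgeR adjusted p = 1.07e-05 and 1.47e-07).

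Of 16 mitochondrial chaperones and proteases, mtDNA B6 cells had 4 higher and 4 lower, and mtDNA NZB cells 6 higher and 1 lower. The shares of all genes were 22.4% higher and 24.5% lower in mtDNA B6 cells, and 25.2% and 28.4% in mtDNA NZB cells. Nothing about the list is read from its counts. Hspa9, the mitochondrial HSP70, rose by 0.49 in mtDNA B6 cells (edgeR adjusted p = 0.0339) and stood at 0.13 in mtDNA NZB cells (edgeR adjusted p = 0.584). Pam16, a subunit of the import motor, rose by 0.54 and 0.59 (edgeR adjusted p = 0.00129 and 0.000799).

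In the haplotype comparison at rest, 4 network genes passed of 93, where 2.76% of all genes did. Unc45a (log2 difference 0.70, edgeR adjusted p = 0.0307) and Dnajb6 (0.88, edgeR adjusted p = 0.0414) were higher in mtDNA NZB cells, and Bag2 (-1.49, edgeR adjusted p = 0.0298) and Htra2 (-0.76, edgeR adjusted p = 0.0298), a protease of the mitochondrial intermembrane space, were lower. None of the 4 was called with the library set as a term. After activation and in the interaction, 0 of 93 passed, as did 0% of all genes with edgeR.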

How the data were processed

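The authors trimmed reads with cutadapt, mapped them with STAR to the last 1000 bases of genes of GRCm39, counted them with HTSeq and deposited UMI counts corrected for saturation, not scaled to library size. A second deposited table of counts, about which less is stated, served as an alternative. 1 column matched no sample and was not used. Counts were fitted for 4 groups together with edgeR 4.0.16 in R 4.3.3 (TMM, filterByExpr, quasi-likelihood test, Benjamini-Hochberg over 10566 genes, adjusted p of at most 0.05), and CPM are TMM-scaled. Standard errors are the fold change over the square root of F. On counts simulated with a common spread for all genes and no effect of library set, the fit recovered known changes in well-counted genes. This does not test the fit for genes as widely spread as Hspa1a. Python 3.11.15 and matplotlib 3.10.9 made the tables and figures. GENCODE gave the coordinates.

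The members and gene lists were chosen with earlier results of these data known. Network genes named were the 3 largest rises and falls among called genes of a list with a mean of at least 10 CPM, and those called between haplotypes, of which a selection is printed. Whether libraries of a group came from separate mice is not stated in the labels, so p-values measure the spread between libraries. Counting error alone limits a value in the smallest library. Alternatives were DESeq2 1.42.0, other scaling and filters, a fold cut-off, blocks, library set as a term and leaving out libraries. The fit over 21 libraries with the set as a term and the values within sets were added after the data were seen.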

Additional observations from a re-analysis of the deposited data

Results flagged for a closer look

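In activated mtDNA B6 cells, replicate 5 stood far from the other 5 libraries for both inducible HSP70 genes. Hspa1a was at 113.6 CPM there and at 0.0 to 0.99 CPM in the others, and Hspa1b at 192.3 CPM against 0.33 to 1.97 CPM. These were the 2 values singled out among 60 groups checked, where chance singles out about 1 in 20 groups. Replicate 5 was the only library of its group in set 2, and the 2 activated mtDNA NZB libraries of that set were at 56.5 and 102.8 CPM of Hspa1a. The part of the set was not tested.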

How the results depend on the processing

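The count of members called in either direction on activation was 7 in mtDNA B6 and 6 in mtDNA NZB cells, all lower. With the library set as a term it was 4 in mtDNA B6 cells, and 3 over 21 libraries with that term. Leaving out 1 library at a time gave 6 to 8 members in mtDNA B6 and 5 to 6 in mtDNA NZB cells, and 0 in each of the 3 other comparisons. Without mtDNA NZB RES replicate 5, mtDNA NZB cells had 4 members lower and 1, Hspd1, higher. Network genes higher on activation in mtDNA B6 cells (30) ranged from 24 to 35 without 1 library and were 17 over 21 libraries with the set as a term. Network genes lower (20) ranged from 17 to 22 and were 12 with the set as a term over 24 or 21 libraries. In mtDNA NZB cells the ranges were 33 to 41 higher and 15 to 21 lower. With a log2 fold change of at least 1, network counts were 0 higher and 7 lower in mtDNA B6 cells and 2 higher and 10 lower in mtDNA NZB cells, by construction fewer.

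Network genes called between haplotypes at rest (4) were 7 with DESeq2, 1 with the second count table, 1 with the fold cut-off, 0 with the set as a term, 2 over 21 libraries with that term, 0 in a fit of the 12 libraries compared and 0 to 6 without 1 library. They were 0 without mtDNA NZB RES replicate 5 or mtDNA B6 RES replicate 1, 3, 4 or 5. The cause was not tested.

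Libraries share a number in the labels. Of 9 resting and activated pairs 3 had deviations correlated over 0.1 (r from -0.158 to 0.253), and 2 libraries matched their own number best. The numbers were not taken as pairs. However, every pair joined libraries of different sets, and the deviations were not corrected for set, so this check cannot exclude pairing. A replicate block by the label number left 6 members called in mtDNA B6 and 1 in mtDNA NZB cells, and a block by the title number 7 and 5, with 2 network genes at rest. All other alternatives left these counts within 1.5 times, and no called value changed sign, whereas with the set as a term uncalled haplotype differences did so for Hspa1a, Hspa1b and Hsph1 at rest and for Hspa1a, Hsp90ab1 and Hspe1 after activation. Those of the responses did so for Hspa1a, Hspa1b, Hsph1 (0.17 to -0.46) and Hsp90aa1 (0.32 to -0.17). Of single values, Hspa1a and Hspa1b in mtDNA B6 cells moved to -13.39 and -12.33 without mtDNA B6 ACT replicate 5, and Hsph1 to -1.82 over 21 libraries with the set as a term.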
